A study of Mus musculus with 6 samples.

Results

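The genes described here are 35 imprinted genes that are expressed in brain, and they were taken by name: a probe was a member when its gene name in the array files equalled 1 of the 35 listed symbols. Of the 35 genes, 34 had a probe under their name, Ddc8 being the one that had none. They carried 81 of the 56605 probes on the array. A probe was kept when all 3 arrays of either group read it well above background, which left 68 probes of 32 genes, of 34421 probes and 22107 gene names in all. Rtl1, a retrotransposon-derived gene, and Phlda2, a regulator of placental growth, each had 1 probe, and neither probe was well above background on any array.

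An imprinted gene is transcribed mainly or only from the copy inherited from 1 parent. The choice is set by DNA methylation laid down in the germ line at imprinting control regions, and at several loci a long noncoding RNA and Polycomb marks, H3K27me3 among them, are part of the silencing of the other copy. Many imprinted genes are strongly expressed in the brain, where members of the group act on feeding, growth and body temperature, and the array measures total RNA of a gene, not the share from each parental copy.

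The 6 arrays came from male C57BL/6J mice with diet-induced obesity (DIO), and they were labelled as hypothalamus from 3 mice given vehicle and 3 mice given GSK-J4 at 30 mg/kg, an inhibitor of the H3K27me3 demethylases Kdm6a and Kdm6b. Per the study's methods, the DIO diet held 60 kcal % fat and was fed for 16 weeks from 6 weeks of age, and the tissue was taken at ZT 6 h. The series description gives 4 d of exposure and a different mouse for each sample, while the methods give daily intraperitoneal injections over a longer course, so the time is stated here as labelled. Whole tissue was measured, so fewer cells of a type and less RNA per cell cannot be told apart.

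The labelled tissue was set against marker genes. Of 12 markers of hypothalamic neurons, 7 passed this filter. The brighter ones were Npy (11.46 to 12.04 on the log2 scale over the 6 arrays), Cartpt (8.17 to 9.05), Pomc (7.79 to 9.05) and Hdc (6.69 to 8.02). Oxt (5.21 to 6.44), Hcrt (4.72 to 5.98) and Agrp (4.43 to 5.2) were dim. The transcription factors Sim1 and Nkx2-1 were well above background on no array, and Pmch, Avp and Trh were so on only 3 arrays each. Of 7 further hypothalamic patterning genes, chosen after values had been seen, 3 passed, namely Lhx6 (13.63 to 14.02), Nr5a1 (5.65 to 6.95) and Rax, which was well above background on 5 arrays. Fezf1 was so on 1 array, and Otp, Six6 and Isl1 on none. All 8 markers of cortex and hippocampus, also chosen after values had been seen, passed on each of the 6 arrays, among them Neurod6 (11.77 to 12.46) and Slc17a7 (11.33 to 11.81). Some defining markers of the labelled tissue were thus near background on all 6 arrays, in both groups, while others were not, and every value below is for arrays labelled hypothalamus.

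The arrays also differed by more than treatment. The 75th percentile of the raw signal was 1136 to 1335 on the vehicle arrays and 606.3 to 692.6 on the GSK-J4 arrays. All vehicle arrays lay on 1 slide and in 1 scan and all GSK-J4 arrays on the other, so the treatment cannot be told apart from slide and scan for any gene below. Vehicle array 1 held all 9 choroid plexus markers at their highest level, and the imprinted genes that were high on that array are described with and without it.

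**Figure D1:**
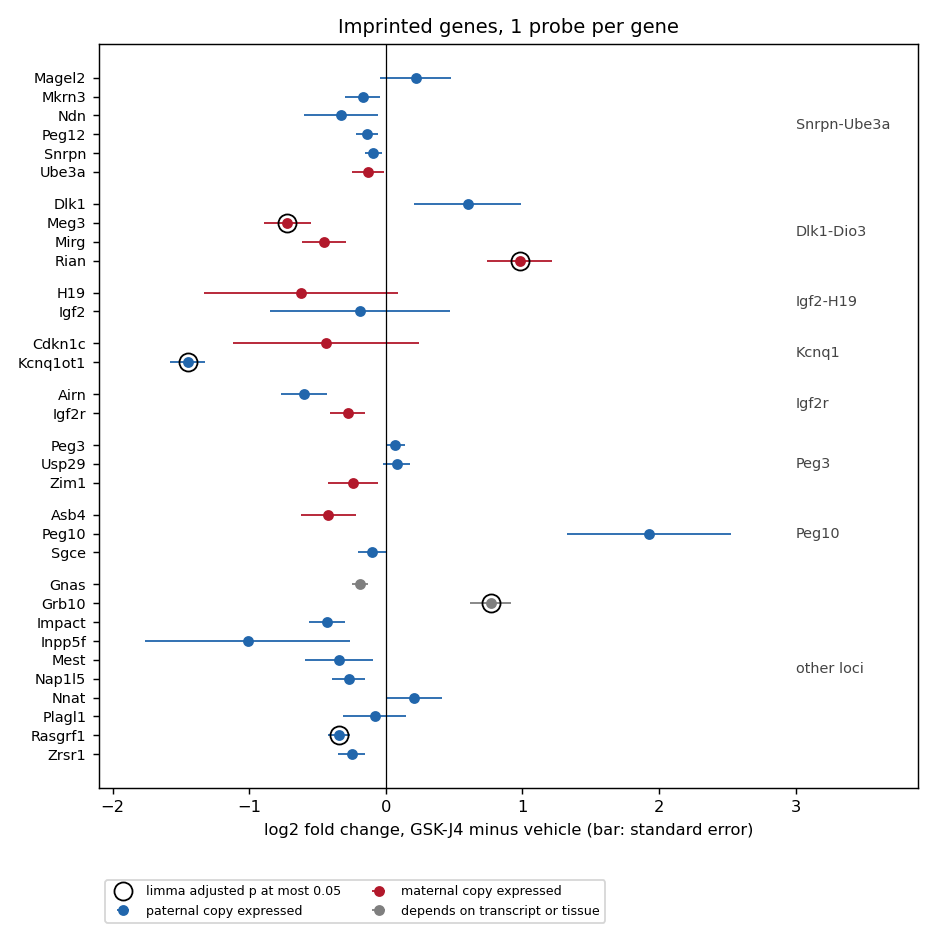
Log2 fold change of each of the 32 tested imprinted genes (GSK-J4 minus vehicle, n = 3 and 3, horizontal axis; the bar is the standard error from limma), 1 probe per gene, grouped by imprinted domain and coloured by the expressed copy. Points lie below 0 for 24 genes and above 0 for 8, and the black rings mark the 5 genes that limma called after adjustment, 2 higher and 3 lower.

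Among the 32 imprinted genes, Rian and Grb10 were higher and Kcnq1ot1, Meg3 and Rasgrf1 were lower on the GSK-J4 arrays at an adjusted p of at most 0.05 (limma, Benjamini-Hochberg over all 22107 genes, 1 probe per gene). That is 2 genes higher, where 9.02% of all genes were called higher, and 3 lower, where 7.8% of all genes were called lower. The 5 calls make up 15.6% of the members, beside 16.8% of all genes, so the imprinted genes were called about as often as any gene on the array. At the thresholds of the study's methods (fold change of at least 1.5 and unadjusted p of at most 0.05, with limma's p), 3 members were higher (Rian, Grb10 and Peg10) and 3 lower (Meg3, Kcnq1ot1 and Airn). The shares at these thresholds were 4.84% of all genes higher and 6.4% lower. Peg10 passed the detection filter through the GSK-J4 arrays alone.

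The log2 fold change was below 0 for 24 of the 32 members (75%) and for 45.8% of all genes. The median was −0.22 over the members and 0.04 over all genes tested, and no test was made of this difference. The 2 groups did not overlap for 3 members with higher and 10 with lower values in GSK-J4, where 25.5% of all genes were without overlap and higher and 20% without overlap and lower. With each array scaled to its own 75th percentile in place of quantile normalization, 19 members were below 0 and the median was −0.1. Leaving out any one of the 3 vehicle arrays ended all 5 adjusted calls, and the calls over all genes then fell to between 24 and 86 (49 without vehicle 1, 86 without vehicle 2 and 24 without vehicle 3). Without GSK-J4 1, 2 or 3 the members called numbered 1, 4 and 2, where 6.44%, 11.7% and 9.64% of all genes were called. The 4 without GSK-J4 2 were Kcnq1ot1 and Grb10 with Airn and Asb4, which were not called on all 6 arrays.

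The Dlk1-Dio3 domain on chromosome 12 holds the maternally expressed noncoding RNAs Meg3, Rian and Mirg, which share 1 orientation and are hosts of microRNAs and small nucleolar RNAs, and the paternally expressed protein-coding genes Dlk1 and Rtl1. Meg3 was lower on the GSK-J4 arrays on all 5 of its probes, and Rian was higher on one probe and lower on the other. Sequences of 4 of the 5 Meg3 probes and of both Rian probes are shown because the result depends on which stretch of each RNA was read. Positions are in mouse build mm9 as given in the array files, all on the + strand, in the order along the chromosome, in lower case throughout.
Meg3 chr12:110783470-110783529: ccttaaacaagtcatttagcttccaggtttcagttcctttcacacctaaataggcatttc
Meg3 chr12:110799833-110799892: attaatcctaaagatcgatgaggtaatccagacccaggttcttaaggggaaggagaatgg
Meg3 chr12:110806386-110806445: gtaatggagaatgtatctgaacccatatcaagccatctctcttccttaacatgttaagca
Meg3 chr12:110809678-110809737: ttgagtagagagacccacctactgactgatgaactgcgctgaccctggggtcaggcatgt
Rian chr12:110865343-110872442: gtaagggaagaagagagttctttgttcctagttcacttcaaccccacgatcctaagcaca
Rian chr12:110899840-110899899: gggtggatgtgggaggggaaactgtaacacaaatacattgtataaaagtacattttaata

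The probe kept for Meg3, at the top of the 4 shown, read 15.88, 15.85 and 16.08 (normalized log2 signal) on vehicle arrays 1 to 3 and 14.94, 15.17 and 15.53 on GSK-J4 arrays 1 to 3. Every GSK-J4 value lay below every vehicle value. The change was −0.72 ± 0.17 (log2, SE), a 1.65-fold difference, with limma's adjusted p = 0.0401. The probe at chr12:110806386-110806445 was also called lower, at −0.98 ± 0.21 (limma's adjusted p = 0.0335 over all probes), and its groups did not overlap. The probe whose sequence is not shown was called lower too, at −0.88 ± 0.19 without overlap (limma's adjusted p = 0.0357 over all probes). The probe at chr12:110809678-110809737, −0.67 ± 0.19, had groups without overlap and did not pass (limma's adjusted p = 0.0599). The probe at chr12:110799833-110799892, −0.50 ± 0.32, had groups that overlapped, its GSK-J4 3 value of 15.97 lying above 2 of the vehicle values.

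The size for Meg3 depended on the scaling. With scaling to the 75th percentile the change of its kept probe was −0.27, with an adjusted p of 0.271 by limma. The adjusted call for that probe also ended without vehicle 2, vehicle 3, GSK-J4 1 or GSK-J4 2 (limma's adjusted p 0.0766 to 0.12) and held without GSK-J4 3, at −0.87. Without vehicle 1 the probe at chr12:110799833-110799892 had the highest mean and stood for the gene, at −0.63 (limma's adjusted p = 0.315), while the probe kept otherwise was at −0.75 (limma's adjusted p = 0.101 over all probes).

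The 2 Rian probes moved in opposite directions, each past the threshold. The probe at chr12:110865343-110872442 covers 7100 bases of the genome with its 60 bases, so it crosses a splice junction. It read 10.34, 10.04 and 10.35 on the vehicle arrays and 8.78, 9.26 and 9.59 on the GSK-J4 arrays, and every GSK-J4 value was the lower (−1.04 ± 0.22, limma's adjusted p = 0.0341 over all probes). The other probe, which lies downstream in an unbroken stretch, read 9.65, 10.37 and 10.45 on the vehicle arrays and 11, 11.06 and 11.34 on the GSK-J4 arrays. Here every GSK-J4 value was the higher (0.98 ± 0.24, 1.97-fold, limma's adjusted p = 0.0443 over all genes). This is the probe that stands for Rian in the counts above, since its mean over the 6 arrays was the higher of the pair.

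Taken within each array, the downstream Rian probe minus the junction probe was −0.09 ± 0.54 (SD, n = 3) on the vehicle arrays and 1.92 ± 0.26 (SD, n = 3) on the GSK-J4 arrays. The difference thus changed by 2.01 without overlap of the groups, and the exact permutation test gave p = 0.1, the smallest that 3 arrays against 3 can give. The mean of both probes moved by −0.03. The call for the downstream probe ended without any one array (limma's adjusted p 0.0623 to 0.0993), while its change stayed between 0.73 and 1.13.

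**Figure D2:**
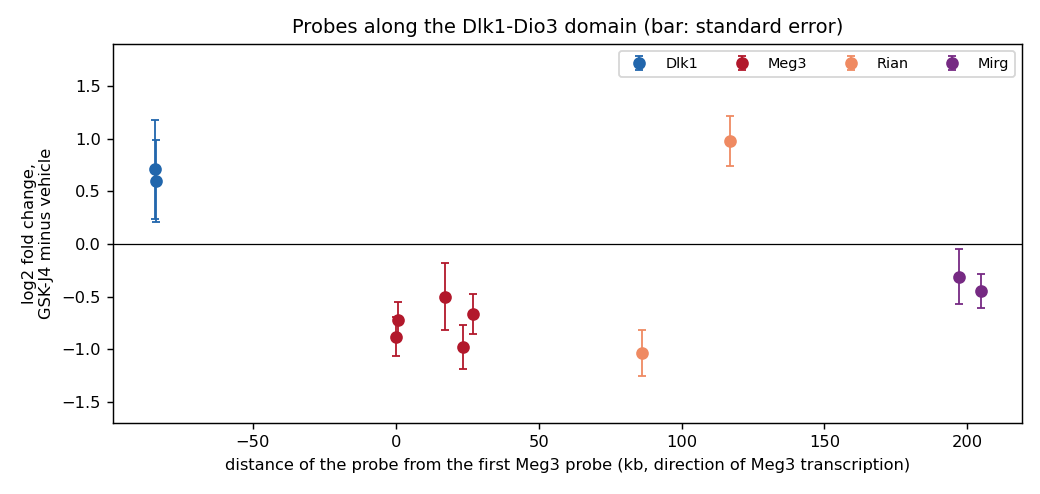
Log2 fold change (GSK-J4 minus vehicle, n = 3 and 3; the bar is limma's standard error) of the 11 kept probes of Dlk1, Meg3, Rian and Mirg, placed by their distance in kb from the first Meg3 probe. The 5 Meg3 probes, the junction probe of Rian and the 2 Mirg probes lie below 0, while the downstream Rian probe and both Dlk1 probes lie above it.

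Mirg, the microRNA host at the far end of the domain, read 12.45, 12.20 and 12.58 against 12.09, 12.11 and 11.67 on its kept probe, and the groups did not overlap (−0.45 ± 0.16, limma's adjusted p = 0.106). Its other probe was at −0.31 with overlapping groups. Dlk1, a transmembrane relative of the Notch ligands that marks preadipocytes, read 8.10, 8.47 and 9.28 against 9.79, 9.09 and 8.77, with overlap (0.60 ± 0.39, limma's adjusted p = 0.314). Its second probe gave 0.71. Of the 11 kept probes in the domain, 1 was called higher and 4 lower, where 8.39% of all probes were called higher and 8.41% lower.

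At the Kcnq1 domain on chromosome 7, the kept probe credited to Kcnq1ot1 had the lowest adjusted p of any member. Kcnq1ot1 is a long unspliced RNA made from the paternal copy, antisense to Kcnq1, that acts in silencing neighbouring genes in cis. The kept probe and the probe that differed most from it are shown because they lie close together and gave unlike changes. Both are on the − strand of mm9, and whether their sequences also occur elsewhere in the genome was not tested. Their signal is thus not known to come from Kcnq1ot1 alone.
Kcnq1ot1 chr7:150410464-150410523: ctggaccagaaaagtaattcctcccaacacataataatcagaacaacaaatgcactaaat
Kcnq1ot1 chr7:150409006-150409065: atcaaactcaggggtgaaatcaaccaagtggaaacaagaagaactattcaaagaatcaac

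The kept probe read 12.53, 12.28 and 12.33 on the vehicle arrays and 10.77, 11.14 and 10.89 on the GSK-J4 arrays. The groups lay over 1 log2 unit apart. The change was −1.45 ± 0.13 (2.72-fold, limma's adjusted p = 0.00982). The neighbouring probe read 11.39, 12.65 and 9.89 against 11.59, 11.74 and 9.85, a spread within each group that was wider than the difference between them (−0.25 ± 0.83, limma's adjusted p = 0.849). The remaining 2 kept probes were at −1.02 ± 0.45 and −0.32 ± 0.16, with overlap, and did not pass. All 4 kept probes were thus below 0, and 1 was called. The mean over the 4 probes fell by 0.76 on the log2 scale and did not pass (limma's adjusted p = 0.139). The call for the kept probe held without each GSK-J4 array (adjusted p 0.0133 to 0.0288) and ended without each vehicle array (0.0519 to 0.0543, limma), with changes of −1.54 to −1.35.

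Cdkn1c, a cyclin-dependent kinase inhibitor of the same domain, and Igf2, the fetal growth factor of the neighbouring Igf2-H19 domain, stood high on 1 vehicle array. Cdkn1c read 12.38 on vehicle 1, 9.83 and 10.11 on the other vehicle arrays, and 10.29, 10.48 and 10.25 on the GSK-J4 arrays. Igf2 read 10.88 on vehicle 1, 8.35 and 8.94 on vehicle 2 and 3, and 8.89, 9.58 and 9.12 on the GSK-J4 arrays. Both were thus highest on vehicle 1 and their groups overlapped, with changes of −0.44 ± 0.68 and −0.19 ± 0.66 that did not pass (limma's adjusted p 0.671 and 0.852). Without vehicle 1 the changes turned to 0.37 for Cdkn1c and 0.55 for Igf2 (limma's adjusted p 0.145 and 0.259). The second Igf2 probe had the same form, 8.31 on vehicle 1 and 5.81 to 6.91 on the other 5 arrays.

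The choroid plexus markers shared the high level on vehicle 1. On the GSK-J4 arrays the Igf2 probes differed from each other in their order. Ttr, the transthyretin gene, read 16.15 on vehicle 1, 10.66 and 10.85 on the other vehicle arrays, and 13.24, 10.42 and 12.03 on the GSK-J4 arrays. The 9 markers were all highest on vehicle 1. For the 8 that passed the detection filter the summed signal was 117000 there, against 3240 and 3420 on the other vehicle arrays. It was 12600, 2970 and 5910 on GSK-J4 arrays 1 to 3. There the kept Igf2 probe read 8.89, 9.58 and 9.12, lowest on array 1. The second Igf2 probe read 6.91, 6.61 and 6.53, highest on array 1. The part of choroid plexus in the Igf2 and Cdkn1c values was not tested. Mest, a paternally expressed hydrolase-like gene, was also highest on vehicle 1 (9.97, against 9.0 to 9.27 on the other 5 arrays), and its change of −0.34 ± 0.25 became −0.07 without it. Vehicle 1 held the highest value of 7 of the 32 members and the lowest of 6.

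**Figure D3:**
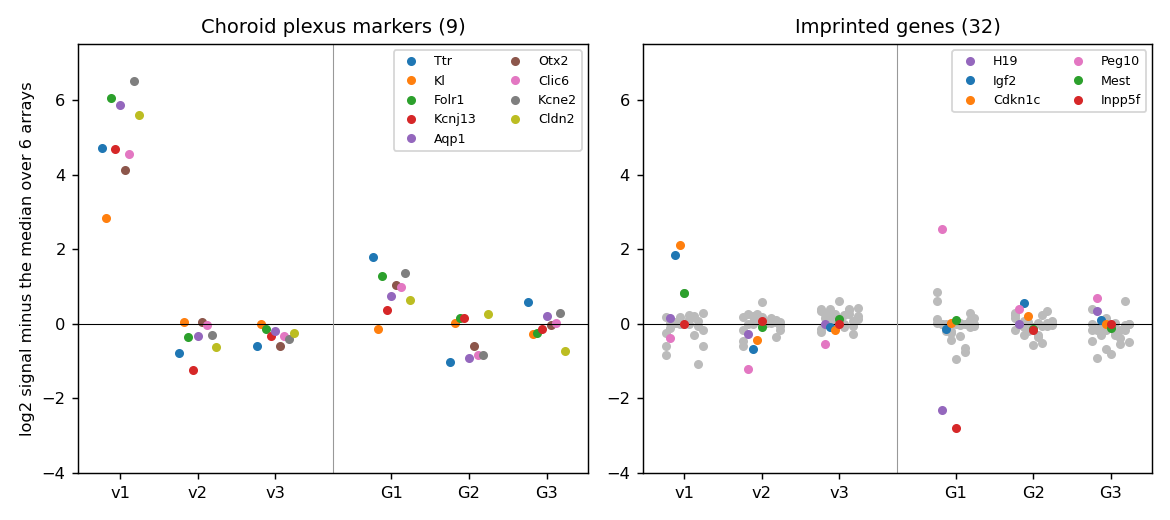
Normalized log2 signal minus the median over the 6 arrays, for the 9 choroid plexus markers (left) and the 32 tested imprinted genes (right), on vehicle arrays v1 to v3 and GSK-J4 arrays G1 to G3; each point is 1 gene on 1 array, and members other than the 6 named are grey. All 9 markers stand highest on v1, where Igf2, Cdkn1c and Mest are also raised, while Inpp5f and H19 stand low and Peg10 high on G1.

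H19, the maternally expressed noncoding RNA beside Igf2, was dim. It was well above background on 3 vehicle arrays and 1 GSK-J4 array, and read 4.32, 3.91 and 4.17 against 1.85, 4.18 and 4.51. The groups overlapped, and its change of −0.62 ± 0.71 (limma's adjusted p = 0.56) rested on GSK-J4 1, without which it was 0.21. A second H19 probe was well above background on no array.

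In the Igf2r domain on chromosome 17, Airn, the paternally expressed RNA antisense to Igf2r, read 8.31, 8.14 and 8.36 on the vehicle arrays and 7.44, 8.04 and 7.55 on the GSK-J4 arrays. Every GSK-J4 value was the lower. The change of −0.60 ± 0.17 (1.51-fold) met the methods' thresholds and not the adjusted one (limma's adjusted p = 0.0681). A further Airn probe was called, at −0.64 ± 0.14 (limma's adjusted p = 0.0351 over all probes), and the third, well above background on 3 vehicle arrays and 1 GSK-J4 array, was at 0.18 with overlap. Igf2r, a receptor that clears IGF2 and was listed as maternally expressed, read 10.90, 10.69 and 10.65 against 10.33, 10.38 and 10.69. The groups overlapped (−0.28 ± 0.13, limma's adjusted p = 0.176).

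The Snrpn-Ube3a domain on chromosome 7 is the counterpart of the human Prader-Willi and Angelman region. None of its 6 members here was called by the adjusted p, where 16.8% of all genes were. Its noncoding RNAs Ipw and Snhg14, read in a further list below, were called lower. On the probe kept for each of the 6, none had an unadjusted p of 0.05 or less in limma. None was called by the methods' t-test after adjustment, which called only 0.321% of all genes. Their changes lay between −0.33 and 0.22, with 5 of 6 below 0. Snrpn, which encodes a splicing protein of neurons, read 16.57, 16.60 and 16.59 against 16.55, 16.48 and 16.46, a small separation without overlap (−0.09 ± 0.06, limma's adjusted p = 0.342). Its other probes were at −0.1 and −0.21, both without overlap. The latter had an unadjusted p of 0.0313 in limma and did not pass (limma's adjusted p = 0.102 over all probes). Under 75th percentile scaling the change of the kept Snrpn probe became 0.44 and passed (limma's adjusted p = 0.0201), so its direction depended on the scaling. Ube3a, the ubiquitin ligase expressed from the maternal copy in neurons, was at −0.13 ± 0.12 on its kept probe and at 0.18 and −0.40 on the others, all with overlap.

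Ndn, a paternally expressed MAGE family gene, read 14.44 to 14.70 on the vehicle arrays and 14.54, 14.55 and 13.62 on the GSK-J4 arrays, so its −0.33 ± 0.27 rested on GSK-J4 3, without which it was −0.02. Magel2, a MAGE family gene linked to feeding and hormone secretion, read 6.84, 7.29 and 7.85 against 7.46, 7.73 and 7.44. The groups overlapped, at 0.22 ± 0.26, and the change was −0.03 without vehicle 1. Mkrn3, linked to the timing of puberty, was at −0.17 ± 0.13, and Peg12 at −0.14 ± 0.08, both with overlap.

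In the Peg3 domain, also on chromosome 7, Peg3, a zinc-finger gene with a role in maternal care, read 11.90, 12.01 and 11.90 against 12.08, 12.00 and 11.94 (0.07 ± 0.07, limma's adjusted p = 0.501, overlap). Usp29, a ubiquitin-specific peptidase gene that shares the Peg3 promoter region, was at 0.08 ± 0.10 on its kept probe, with overlap. A dim Usp29 probe further upstream in the gene read 4.52, 4.23 and 5.10 on the vehicle arrays and was not well above background on any GSK-J4 array. It was at least 1.08-fold lower there by the bound that background sets (measured −1.59 ± 0.34, limma's adjusted p = 0.0336 over all probes). This probe passed the filter through the vehicle arrays alone, where it was brighter, so its p is not independent of that choice. With another background correction its change was −0.27. Zim1, a maternally expressed zinc-finger gene, was well above background on 3 vehicle arrays and 1 GSK-J4 array and was at −0.24 ± 0.18 with overlap.

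Peg10, a retrotransposon-derived gene on chromosome 6, was a dim gene on these arrays. It read 4.07, 3.25 and 3.92 on the vehicle arrays, where 1 array was well above background, and 7.0, 4.85 and 5.16 on the GSK-J4 arrays, where all 3 were. The groups did not overlap, and GSK-J4 1 stood far above the others. The change of 1.93 ± 0.60 met the methods' thresholds and not the adjusted one (limma's adjusted p = 0.0775). The Peg10 probe passed the filter through the GSK-J4 arrays alone, where it was brighter, so this change is not independent of that choice. It was 1.27 without GSK-J4 1 and 0.67 with normexp background correction. Sgce, the epsilon-sarcoglycan gene that shares the Peg10 promoter region, was at −0.10 ± 0.10 with overlap. Asb4, a maternally expressed gene of the SOCS box family, was at −0.42 ± 0.20 with overlap and was well above background on 3 vehicle arrays and 1 GSK-J4 array.

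**Figure D4:**
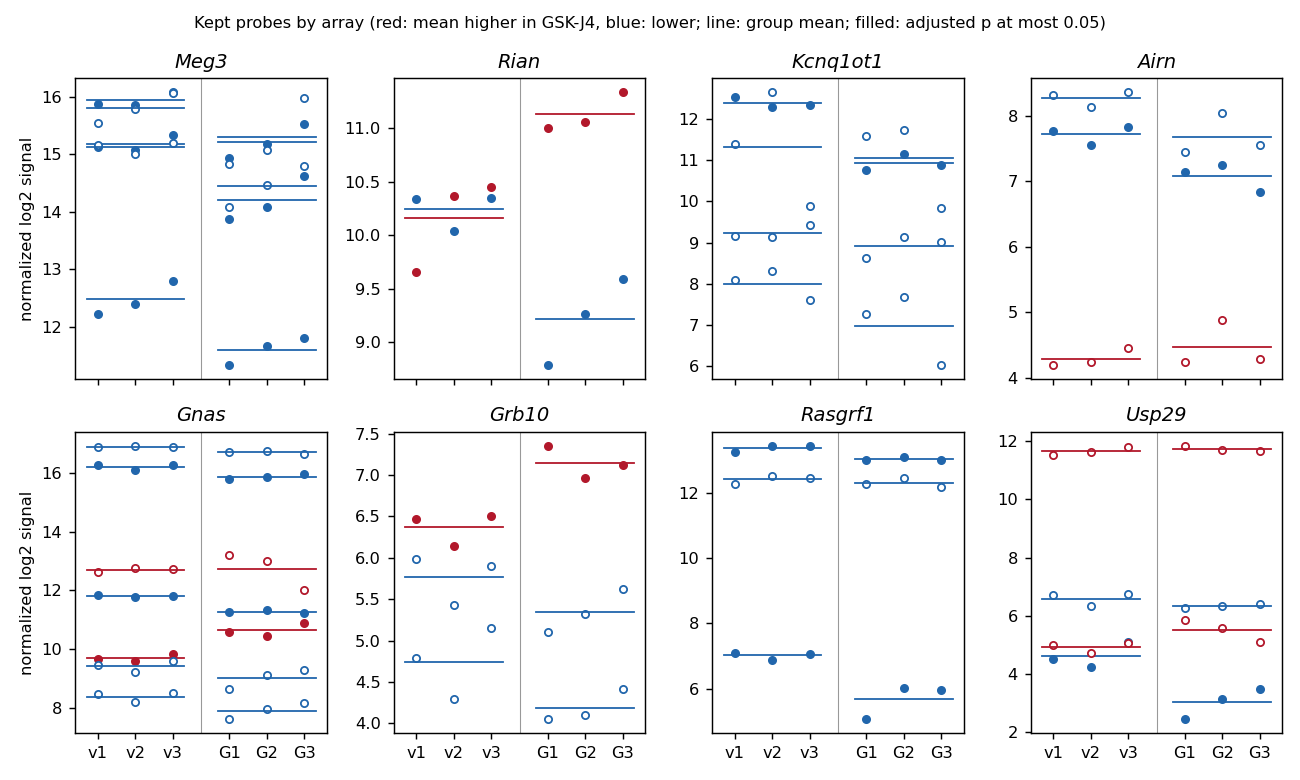
Normalized log2 signal on vehicle arrays (v1 to v3) and GSK-J4 arrays (G1 to G3) for every kept probe of 8 imprinted genes; each point is 1 probe on 1 array and the line is the group mean (n = 3). Red probes have the higher mean in GSK-J4, blue the lower, and filled points passed the adjusted threshold of 0.05; Rian, Gnas, Grb10, Airn and Usp29 hold probes of both colours, and all 5 Meg3, 4 Kcnq1ot1 and 3 Rasgrf1 probes are blue.

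Grb10, an adaptor that dampens insulin and growth factor receptor signalling, is expressed from the paternal copy in neurons and from the maternal copy in most other tissues. Its kept probe read 6.47, 6.14 and 6.50 on the vehicle arrays and 7.35, 6.96 and 7.12 on the GSK-J4 arrays. Every GSK-J4 value was the higher (0.77 ± 0.15, 1.71-fold, limma's adjusted p = 0.0277). The other 2 Grb10 probes went the other way without passing. One read 5.98, 5.43 and 5.90 against 5.10, 5.32 and 5.62 (−0.42 ± 0.20). The other was measured at −0.55 ± 0.24 and was well above background on no GSK-J4 array, a bound of at least 1.17-fold lower. The mean of the 3 probes moved by −0.07. The call for the kept probe held without GSK-J4 2 (limma's adjusted p = 0.0379) and ended without each other array (0.0591 to 0.0834).

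Gnas, which encodes the stimulatory G protein alpha subunit and, from other promoters, several transcripts of opposite parental origin, had 7 kept probes. The kept probe, at the 3′ end of the locus, read 16.87, 16.91 and 16.88 against 16.71, 16.74 and 16.65 (−0.19 ± 0.06, limma's adjusted p = 0.0898). The groups did not overlap, but under 75th percentile scaling the change was 0.33 and passed (limma's adjusted p = 0.0269). A probe near the middle of the locus, at chr2:174154248-174154307 (mm9), read 9.68, 9.60 and 9.85 against 10.59, 10.45 and 10.90. All GSK-J4 values were the higher (0.94 ± 0.14, limma's adjusted p = 0.0189 over all probes). A further probe, spanning chr2:174167177-174167338, read 11.86, 11.79 and 11.80 against 11.26, 11.35 and 11.23. All GSK-J4 values were the lower (−0.54 ± 0.07, limma's adjusted p = 0.0165). Both calls held without each GSK-J4 array and ended without each vehicle array (limma's adjusted p 0.0634 to 0.0738). Another probe, at chr2:174171933-174171992, was also called lower, without overlap (−0.34 ± 0.08, limma's adjusted p = 0.0484 over all probes). That call ended without any one array, and the change was 0.16 under 75th percentile scaling.

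Rasgrf1, a guanine nucleotide exchange factor of neurons expressed from the paternal copy, read 13.26, 13.43 and 13.43 on the vehicle arrays and 12.99, 13.10 and 13 on the GSK-J4 arrays. Every GSK-J4 value was the lower (−0.34 ± 0.08, 1.27-fold, limma's adjusted p = 0.0395), below the methods' fold threshold. A second probe read 7.10, 6.89 and 7.06 against 5.06, 6.02 and 5.95 and was called too (−1.34 ± 0.27, limma's adjusted p = 0.0299 over all probes). The third was at −0.10 with overlap. Under 75th percentile scaling the kept probe was at −0.10 (limma's adjusted p = 0.402), and the call ended without any one array (0.062 to 0.13).

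Impact, a regulator of the GCN2 stress kinase, read 13.94, 14.11 and 14.29 against 13.87, 13.59 and 13.59, without overlap (−0.43 ± 0.13, limma's adjusted p = 0.0705). Zrsr1, a splicing-related retrogene, read 12.05, 12.30 and 12.29 against 12.01, 11.99 and 11.87, without overlap (−0.25 ± 0.10, limma's adjusted p = 0.119). Inpp5f, a phosphoinositide phosphatase gene, read 12.27, 12.34 and 12.27 on the vehicle arrays, 9.48 on GSK-J4 1, and 12.10 and 12.27 on the other GSK-J4 arrays. Its −1.01 ± 0.75 (limma's adjusted p = 0.375) thus rested on GSK-J4 1, without which it was −0.11, and its other probe was at 0.08. Nnat, a small membrane protein of neurons, was at 0.21 ± 0.20, Plagl1, a zinc-finger factor of growth control, at −0.08 ± 0.23, and Nap1l5, a nucleosome assembly protein relative, at −0.27 ± 0.12, all with overlap.

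Of the 18 imprinted genes with several kept probes, 8 had probes on both sides of 0 (44.4%), beside 47.4% of the 7903 genes on the array that had several. The kept probe was compared with the probe of the same gene whose change was farthest from it, as a difference within each array. This difference changed by over 0.5 on the log2 scale in 9 of the 18 genes (50%, beside 34.3% of the 7903), and its 2 groups did not overlap in 9 (50%, beside 44.9%). The members had a median of 3 kept probes and all such genes 2, and no test was made of these shares. The sizes without overlap were 2.01 for Rian, 1.66 for Usp29, 1.33 for Grb10, 1.0 for Rasgrf1, −0.77 for Airn, −1.09 for Inpp5f and −1.12 for Gnas, with 0.25 for Meg3 and 0.13 for Sgce. Each gave p = 0.1 by the exact permutation test, the least that 3 against 3 allows, and 0.2 after Benjamini-Hochberg adjustment over the 18 genes. The far probe was chosen by its change, so these sizes are a description. Over the 68 kept member probes, 3 were called higher and 11 lower, or 20.6% in all, where 16.8% of all probes were called. The 11 include the Usp29 probe that passed the filter through the vehicle arrays alone.

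**Figure D5:**
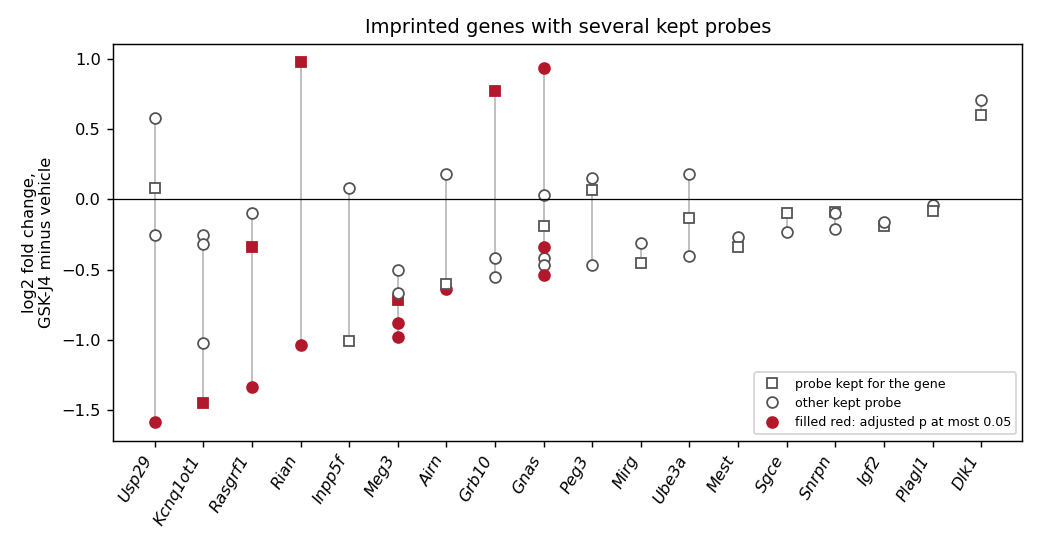
Log2 fold change (GSK-J4 minus vehicle, vertical axis) of every kept probe of the 18 imprinted genes that had more than 1; squares mark the probe kept for the gene, circles the other probes, and red filled symbols the probes that limma called after adjustment. Usp29, Rian, Inpp5f, Airn, Grb10, Gnas, Peg3 and Ube3a have probes on both sides of 0, and Rian and Gnas have called probes on both sides.

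By the copy that is expressed, the 21 tested paternally expressed genes had a median change of −0.17, with 0 called higher and 2 lower (Kcnq1ot1 and Rasgrf1) by limma's adjusted p, where 9.02% of all genes were called higher and 7.8% lower. At the methods' thresholds, 1 of them was higher and 2 lower, where 4.84% of all genes were higher and 6.4% lower. By the methods' t-test after adjustment 0 were called. That test called only 0.321% of all genes, so the 0 says little about these members. The 9 maternally expressed genes had a median of −0.42, with 1 higher (Rian) and 1 lower (Meg3) by the adjusted p, against the same shares. Below 0 lay 15 of the 21 and 8 of the 9. Gnas and Grb10 were kept apart because their expressed copy depends on the transcript or the tissue. The other members were placed from general knowledge, and whether the named copy is the expressed one in each cell type here was not tested.

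The base composition of the probe went with the change over the whole array. Of the probes at or under 36.7% GC, 14.9% were called lower and 1.94% higher, and of those at or over 45% GC, 3.99% were called lower and 14.3% higher. Among the member probes, 2 of 23 low-GC probes were called lower and 1 higher, and 6 of 19 high-GC probes were called lower and 2 higher. The share called lower thus ran the other way from that of all probes, while the share called higher was larger at high GC in both, with few member calls behind each share. With the GC trend removed on each array, 3 members were called (Kcnq1ot1, Grb10 and Rian).

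The promoters of the members were compared by their CpG content, the sequence feature on which imprint methylation acts. The RefSeq table (build GRCm38.p6) held a window of 300 bases, 250 before and 50 after the start, for 28 of the 35 genes. The dinucleotide CG, which reads the same on both strands, was counted in each. Only the first start listed for a gene was used, so other promoters of a gene are not in these counts. Whether a window is the imprinted promoter was not tested. The median was 13 per window in the members and 7 over 27025 promoters, and 46.4% of the member windows held at least 15, against 35.2% of all. The highest member was Grb10 with 45 and the lowest Rian with 0, and both were called higher on the arrays. Kcnq1ot1 held 9, Meg3 13 and Rasgrf1 26.

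A list of 58 further imprinted genes was read in the same fit. Of its 47 tested members, 1 was called higher and 4 lower, where 9.02% of all genes were called higher and 7.8% lower, with a median of 0.14 beside 0.04 over all genes. Ipw and Snhg14 are noncoding RNAs made from the paternal copy of the Snrpn-Ube3a domain, downstream of Snrpn. Ipw read 12.88, 12.98 and 13.35 on the vehicle arrays and 11.70, 12.01 and 12.08 on the GSK-J4 arrays. Every GSK-J4 value was the lower by a wide margin (−1.14 ± 0.16, limma's adjusted p = 0.0172). Snhg14, the host of the small nucleolar RNAs and the Ube3a antisense transcript, was at −0.43 ± 0.07 (limma's adjusted p = 0.022), and at −0.07 with the GC trend removed. Both calls ended without each vehicle array (limma's adjusted p 0.0548 to 0.0868), and that for Snhg14 also without GSK-J4 1 (0.055).

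The other calls in that list were small. Ago2, the slicer of RNA interference, was at −0.36 ± 0.09, Cd81, a tetraspanin of the Kcnq1 domain, at −0.32 ± 0.06 and Tssc4, also of that domain, at 0.24 ± 0.06. Their limma adjusted p values were 0.0465, 0.0295 and 0.0477. Cd81 turned to 0.12 with 75th percentile scaling. All 3 calls ended without any one array.

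Of 20 tested factors that set or keep imprints, 1 was called higher and 1 lower, beside 16.8% of all genes called in either direction. Dnmt1, the maintenance DNA methyltransferase, read 8.40, 8.46 and 8.40 against 9.18, 8.93 and 9.07, with all GSK-J4 values the higher (0.64 ± 0.09, limma's adjusted p = 0.0155). Smchd1, a chromosomal protein needed for silencing at several imprinted clusters, read 11.88, 11.87 and 11.93 against 11.32, 11.56 and 11.43, with all GSK-J4 values the lower (−0.46 ± 0.08, limma's adjusted p = 0.0247). Both calls ended without each vehicle array (limma's adjusted p 0.0594 to 0.0871), and that for Smchd1 also without GSK-J4 1 or 3 (0.0543 and 0.0539).

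Of 7 genes of the H3K27me3 machinery, 1 was called, where 16.8% of all genes were. It was Ezh2, a methyltransferase of PRC2, which was higher (8.15, 7.90 and 7.85 against 8.51, 8.49 and 8.54). The GSK-J4 values lay close together and above all vehicle values (0.55 ± 0.10, limma's adjusted p = 0.024), and the call ended without any one array. Without GSK-J4 2 another Ezh2 probe had the highest mean and stood for the gene, at 0.22, and the mean of all Ezh2 probes moved by 0.25 (limma's adjusted p = 0.0784). Kdm6a and Kdm6b, the demethylases that GSK-J4 inhibits as proteins, were at 0.05 ± 0.08 and 0.25 ± 0.10 and were not called (limma's adjusted p 0.644 and 0.143).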

How the data were processed

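RNA labelled with Cy3 was hybridised by the authors to Agilent SurePrint G3 mouse arrays, 1 mouse per array. Intensity values (processed signal, background corrected) were deposited as made by Agilent Feature Extraction 10.7.1.1, per the submitters' processing notes, with probe positions in build mm9. A table of log2 values that the authors quantile normalized in GeneSpring was deposited too, and served as an alternative; its columns correlated with the scanner values at 0.9992 or more, its median is 5.742 in each column, and its direction and scale matched.

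Here, the processed intensity was quantile normalized over the 6 arrays and taken to log2, control and outlier spots were left out, spots of 1 probe were averaged, and a probe was kept when well above background on all 3 arrays of a group. Each gene is given by its kept probe with the highest mean. GSK-J4 was compared with vehicle with limma 3.58.1 (R 4.3.3; lmFit and eBayes), two-sided, with Benjamini-Hochberg adjustment over all genes, or over all kept probes. Fold changes are GSK-J4 minus vehicle. Probe sequences were not searched for matches to other loci, so a probe is credited to the gene named in the array files. The number of arrays limits the precision, and 57.7 to 63.6% of probes were well above background per array. The fit was tested on simulated data: of 200 genes of 22107 changed by 1 log2 unit, 58.2% were recovered at an adjusted p of at most 0.05, and 5.75% of calls were false. The simulated noise was independent between genes and held no effect of slide, scan or base composition. The 5.75% thus does not measure the false share among the calls on the real arrays.

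All listed genes are named; of each further list, those past the adjusted p, at most 5 by size; for genes with several probes, the kept probe and the one farthest from it, with further probes shown after their values were seen. Members and lists were chosen with earlier results of these data known. Copies and domains were assigned from general knowledge. "At least" folds set the bright group's mean against the higher of the dim probe's signal and the lowest signal well above background on each array. The alternatives were 75th percentile scaling, normexp background correction (offset 50), the deposited table, other detection filters, removal of the GC trend (lowess), the replicate block, the mean of a gene's probes, the methods' t-test, and leaving out each array. The sequence of 1 Meg3 probe is not reported here.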

Additional observations from a re-analysis of the deposited data

How the results depend on the processing

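The number of imprinted genes called by adjusted p, 5 here, was 7 with 75th percentile scaling, 6 with normexp, 5 with the deposited table or the stricter filter, 3 with the GC trend removed, 1 without the filter on dim probes, 1 with the mean of probes and 0 by the methods' t-test, and 0 to 4 when 1 array was left out. The 7 with 75th percentile scaling did not hold Meg3 or Rasgrf1, and held Airn and Peg12. They also held Gnas and Snrpn, which were higher there and lower with quantile normalization. The 6 with normexp held Gnas and Impact, which were not among the 5. Same-numbered arrays did not deviate together (correlations 0.00741, 0.0258 and 0.0817), so the numbers do not pair the mice; with the replicate block 0 imprinted genes and 0 of their probes passed, with or without the GC correction, and 0 of all genes, whereas 11.1% of all genes met the methods' thresholds under the block. At the methods' thresholds 6 imprinted genes passed, 3 with normexp, 3 with the mean of probes, and 4 to 7 with an array left out. The 14 called probes became 5 without the filter and 0 to 10 with an array left out.

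Over all genes, 3717 were called. Leaving out 1 array gave 24 to 2598, removing the GC trend 2282, no filter 2361, 75th percentile scaling 6149, the methods' t-test 71 and the block 0, with or without the GC correction. The share of calls that were higher was 53.6% and became 67.7% with 75th percentile scaling. The direction turned with that scaling for Gnas (0.33), its probe at chr2:174171933-174171992 (0.16), Ndn (0.02), Plagl1 (0.09), Sgce (0.08), Snrpn (0.44) and Cd81 (0.12). It turned with the GC trend removed for Plagl1 (0, also with the block) and Snrpn (0.05, also with the block). With the mean of probes it turned for Grb10 (−0.07), Peg3 (−0.08), Rian (−0.03) and Usp29 (−0.30), and with normexp for Usp29 (−0.01). With 1 array left out the change ranged from −0.91 to 0.37 for Cdkn1c, −1.14 to 0.21 for H19, −0.72 to 0.55 for Igf2, −0.03 to 0.48 for Magel2 and −0.25 to 0.09 for Plagl1. The cause was not tested. The slide could not be fitted as a block, since each slide held 1 group. Dim probes (H19, Peg10, Asb4, Zim1 and 1 of Usp29) were close to background, which limits their changes.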
